A study of Mus musculus with 48 samples.

Results

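The 31 genes described here are a set of transcripts typical of astrocytes, chosen by name from the table of gene counts, where 31 of 31 were found among 23420 genes. RNA was taken from the striatum, the input nucleus of the basal ganglia, of 16 mice at about 50 days of age. A punch of 3 mm was taken from each side of the brain and pooled per mouse. One genotype, here called congenic, carries a 112 kb segment on the C57BL/6J background. The stretch is known, from outside these files, as DBA/2J sequence of chromosome 11 that includes Hnrnph1. The other genotype is wild-type C57BL/6J, from the same litters by the title of the series, and no mouse had a treatment in the labels. Each genotype had 8 mice, 4 females and 4 males. Nothing in the labels limits the segment to a cell type, so astrocytes and neurons of a congenic mouse carry it alike.

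Astrocytes take up the glutamate and GABA that neurons release, convert glutamate to glutamine, buffer potassium and water at their end-feet around blood vessels, and supply lipoproteins and other secreted factors. They are joined to one another by gap junctions into a network. After injury many of them raise Gfap and a further set of genes, a state called reactive. In bulk tissue fewer astrocytes and less RNA per astrocyte cannot be told apart, and some of the genes, such as Apoe, Cst3, Glul and Fgfr3, are also transcribed in microglia, oligodendrocytes or other cells.

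Per mouse the gene table held 73.1 to 82.0 M counts, and 16716 genes passed the filter on low counts, all 31 astrocyte genes among them. Together the 31 genes took 1.35% to 1.57% of the counts of a mouse. Striatal projection neuron markers summed to 8610 to 11300 CPM (counts scaled to the TMM-adjusted size of the library) in every mouse, so the defining transcripts of the labelled tissue were present. Cortical excitatory neuron markers varied more, from 33.4 to 265 CPM in sum, with a median of 82.1 in congenic, 176 in wild-type, 195 in female and 79.1 in male mice. The mouse Sample_4806, labelled female, had 2.63 CPM of Xist, against 952 to 1550 in the other females, and at most 0.0632 CPM of 4 Y-linked genes. It is kept as labelled, and the count of genes called by sex and the sex differences of the named genes and of the called exon bin are also given without it. Throughout, n counts mice, each a separate animal in the labels.

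The 2 most abundant of the 31 genes by length encode secreted proteins. On a scale of CPM per kilobase of exon, which allows a rough comparison of genes, the cysteine protease inhibitor Cst3 stood at 1132. It ranked 5th of 15625 genes with a known length. Apoe, the main lipid carrier of the brain, followed at 871 and ranked 10th. The length joins all annotated exons, so exons that are hardly used lower the level of a gene. Of the 8537 bp of Slc1a3, 1 noncoding stretch of 1263 bp held 0.252% of its exon counts. Of the 4218 bp of Gfap, 1 alternative end of 1355 bp held 2.01%. The part of such exons in the order of the genes was not tested. Sparcl1, a secreted protein that promotes synapse formation, had a level of 450, and the chaperone clusterin, Clu, one of 222. Mfge8, which tags material for phagocytosis, was the lowest of the secreted group at 55.9. Genes of glutamate handling were also high. Glul, the glutamine synthetase, had 474 CPM per kilobase, Slc1a2, the transporter GLT-1 that clears most glutamate in the forebrain, 227, and Slc1a3, the related transporter GLAST, 69.3.

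Metabolic genes spanned a wide range of the per-length level. Ndrg2, which the astrocyte lineage expresses strongly, had 353, the glycolytic enzyme Aldoc 242 and the acyl-CoA synthetase Acsbg1 46.2. Ppp1r3c, which targets a phosphatase to glycogen, had 18.2, and the folate enzyme Aldh1l1, a much used astrocyte marker, 13.3. Among genes of water and ion handling, Mlc1 stood at 68.7 and the sodium pump subunit Atp1b2 at 63.8. The bicarbonate cotransporter Slc4a4 stood at 29.5 and the water channel Aqp4 at 19.1. Connexin 43, encoded by Gja1, had 61.5, connexin 30, encoded by Gjb6, 12.4 and the tight junction gene Cldn10 10.8. The receptor genes Gpr37l1, Ntsr2 and Fgfr3 had 74.7, 56.4 and 14.2.

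The other transporters were low, with the GABA transporter Slc6a11 at 28.6, the amino acid carrier Slc7a10 at 11.8 and the peptide carrier Slc15a2 at 3.09 CPM per kilobase, the lowest of the 31 genes. Gfap, the intermediate filament that marks reactive astrocytes, stood at 17.4, far under the actin-associated Fam107a at 101 and the calcium-binding S100b at 89.1. The transcription factors were low too, with Hes5, a Notch target, at 10.8 and Sox9 at 4.89. From Cst3 to Slc15a2 the per-length levels spanned 366-fold, with a median of 56.4, and 17 of the 31 genes ranked among the first 1000. The genes lie on 15 chromosomes, 5 of them on chromosome 14 and 4 on chromosome 11 (Gfap, Aldoc, Sox9 and Atp1b2).

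**Figure D1:**
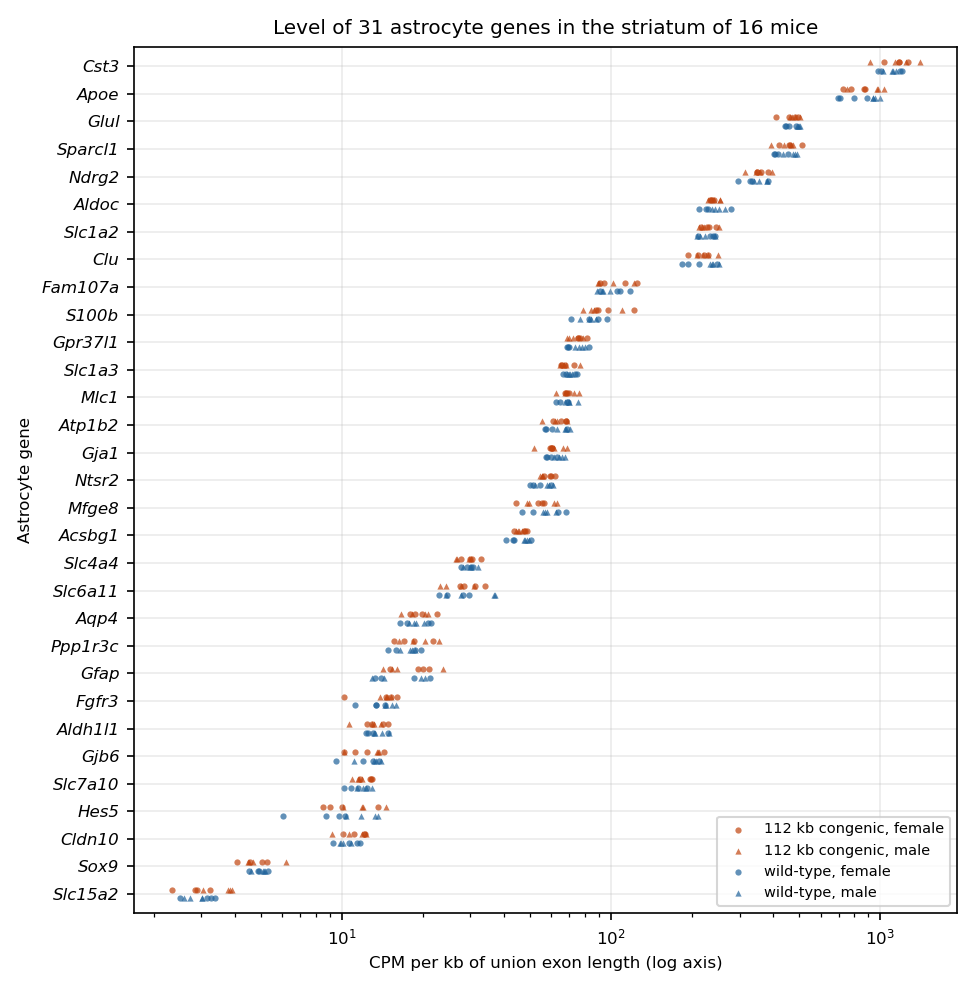
Level of each astrocyte gene in every mouse, as CPM per kilobase of union exon length on a log axis, with congenic mice in orange above wild-type mice in blue, females as circles and males as triangles. Cst3 and Apoe lead at 1132 and 871, Slc15a2 is last at 3.09, and the points of both genotypes overlap for every gene.

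Differences between mice were small for most of the genes. The coefficient of variation of CPM over the 16 mice had a median of 9.37%, and it was under 10% for 19 genes. The steadiest was Slc1a3 at 5.24%, followed by Mlc1 at 5.46% and Glul at 5.50%. Hes5 varied most at 21.01%, from 8.24 to 19.8 CPM, and Gfap came second at 19.5%, from 54.5 to 99.8 CPM. Slc6a11 at 15.6%, Slc15a2 at 15.1% and S100b at 13.98% followed. Gfap did not split by genotype, since the mice over 83 CPM were 3 congenic mice (Sample_4733, Sample_4739 and Sample_4804) and 3 wild-type mice (Sample_4806, Sample_4732 and Sample_4672).

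The main comparison of the study, congenic against wild-type, found no astrocyte gene that differed. None of the 31 passed edgeR's quasi-likelihood test at an adjusted p under 0.05, where 0% of 16716 genes passed. At an unadjusted p under 0.05 the count was 1 of 31, S100b, against 256 of all tested genes (1.53%). DESeq2 called 0 genes, with 268 at unadjusted p and 1 astrocyte gene among them, and limma-voom called 0 with 277 and no astrocyte gene. The median log2 fold change of the 31 genes was 0.015, beside 0.0015 over all tested genes, with 17 above and 14 below 0. The 95% interval held 0 for 30 of the 31 genes and lay within 0.25 of 0 on the log2 scale for 25. The widest reached 0.40, for Gfap.

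S100b, a calcium-binding protein that astrocytes also release, had the smallest p. Its lowest, median and highest levels were 116, 132 and 180 CPM in congenic and 106, 124 and 143 CPM in wild-type mice. The groups overlap, and the congenic mean is carried up by Sample_4739 at 180 and Sample_4673 at 163 CPM. The log2 fold change was 0.17 (SE 0.08) with a 95% interval of 0.0016 to 0.33, an unadjusted p of 0.048 and an adjusted p of 0.999. Of 8 markers of cortical excitatory neurons none passed at adjusted or unadjusted p for genotype, all 8 were below 0, and their median log2 fold change was -0.43. With the mean of their log2 CPM as a covariate the value of S100b was 0.07.

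The 5 genes next in order of p overlapped as widely. Cldn10, a claudin, had 24.1, 30.1 and 32.4 CPM (lowest, median, highest) in congenic and 24.3, 27.1 and 30.5 in wild-type mice, with a log2 fold change of 0.10 (SE 0.06, edgeR adjusted p = 0.999). Ppp1r3c, the glycogen-targeting subunit, had 42.4, 50.2 and 62.3 CPM in congenic and 40.1, 49.0 and 53.2 in wild-type mice, a log2 fold change of 0.11 (SE 0.08, edgeR adjusted p = 0.999). Slc15a2, the peptide carrier, had 17.1, 23.1 and 28.8 CPM against 18.3, 22.1 and 24.7, a log2 fold change of 0.12 (SE 0.09, edgeR adjusted p = 0.999). Congenic mice held both the lowest and the highest values of these 3 genes but for the lowest Ppp1r3c. Cst3 had 1157, 1490 and 1773 CPM in congenic and 1238, 1407 and 1531 in wild-type mice, a log2 fold change of 0.09 (SE 0.07, edgeR adjusted p = 0.999). Mfge8 had 94.0, 116 and 134 CPM against 99.4, 122 and 145, a log2 fold change of -0.10 (SE 0.08, edgeR adjusted p = 0.999). With the cortical marker covariate the log2 fold changes of Cldn10, Ppp1r3c, Cst3 and Mfge8 were 0.06, 0.02, 0.02 and -0.06. That of Slc15a2 lay between 0.08 and 0.18 under all 25 alternatives, the covariate among them. Leaving out 1 mouse, Ppp1r3c ran from 0.06 without Sample_4739 to 0.14 without Sample_4806, Cst3 from 0.05 without Sample_4673 to 0.14 without Sample_4671, and Mfge8 from -0.14 without Sample_4753 to -0.06 without Sample_4676.

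The genes by which astrocytes are most often defined gave intervals close to 0. Slc1a2 had 2792, 2942 and 3301 CPM in congenic and 2742, 2995 and 3195 in wild-type mice, with a log2 fold change of 0.0057 (95% interval -0.09 to 0.11). Slc1a3 had 550, 572 and 655 CPM against 567, 598 and 635, with a log2 fold change of -0.04 (-0.13 to 0.05). Thus differences of more than about 0.13 on the log2 scale lie outside the intervals of both glutamate transporters. Aqp4 had 87.7, 102 and 119 CPM in congenic and 87.1, 99.4 and 114 in wild-type mice, a log2 fold change of 0.03 (-0.10 to 0.16). Gja1 had 161, 188 and 213 CPM against 178, 192 and 210, with -0.02 (-0.12 to 0.08). Aldh1l1 had 47.9, 58.9 and 66.7 CPM against 55.1, 59.6 and 67.5, with -0.04 (-0.17 to 0.08). Gfap had 59.8, 73.9 and 99.8 CPM against 54.5, 69.2 and 89.1, and its log2 fold change of 0.10 came with the wide interval of -0.20 to 0.40. Leaving out 1 mouse, the value of Gfap ran from 0.02 without Sample_4733 to 0.16 without Sample_4806. The edgeR adjusted p was 0.999 for each of these 6 genes.

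**Figure D2:**
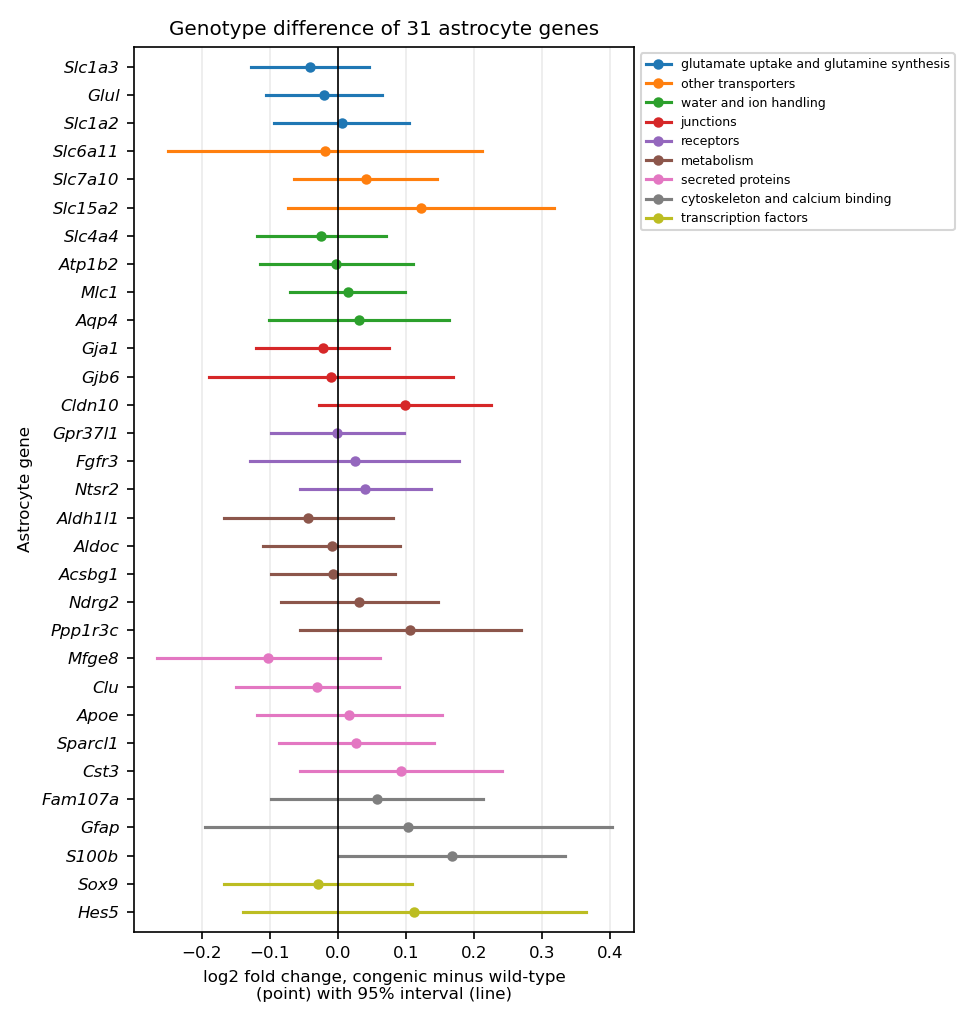
Log2 fold change of each astrocyte gene, congenic minus wild-type with sex in the model, as a point with its 95% interval, coloured by role. The interval of S100b alone, from 0.0016 to 0.33, lies clear of 0, and the widest is that of Gfap, which reaches 0.40.

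By role, the groups lay on both sides of 0. The 3 genes of cytoskeleton and calcium binding were all positive (median 0.10), the 3 genes of glutamate uptake and glutamine synthesis had a median of -0.02, and the 5 secreted proteins one of 0.02. No role group held a gene past the adjusted threshold. Of 39 further astrocyte genes outside the set, such as Kcnj10, Hepacam and Mt1, 0 passed at adjusted or at unadjusted p, and their median log2 fold change was 0.0090. The 3 with the smallest p among them were Ptprz1 at -0.07, Pltp at -0.12 and Mt2 at 0.18, each with an edgeR adjusted p of 0.999.

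Genes of the reactive state gave no call either. Of 37 such genes 35 passed the filter on low counts, and the 2 left out were Lcn2 and Slc10a6. None passed at the adjusted threshold, 2 of 35 (5.71%) passed at unadjusted p, beside 256 of all tested genes (1.53%), and the median log2 fold change was 0.01, beside 0.0015. Serpina3n, a protease inhibitor that reactive astrocytes raise, stood at 4.87 ± 0.754 CPM with the segment and at 5.82 ± 0.759 CPM without it (SD over 8 mice each). Its log2 fold change was -0.26 (SE 0.09), with an unadjusted p of 0.011 and an edgeR adjusted p of 0.999. Ptgs2, the cyclooxygenase that neurons also express, had a log2 fold change of -0.26 (SE 0.12) and S100a10 one of 0.13 (SE 0.08), both at an edgeR adjusted p of 0.999.

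The genotype difference was then taken within each sex. Again no gene passed the adjusted threshold, among females (0%), among males (0%) or for the interaction of genotype with sex (0%), and DESeq2 called 0 genes in each. At unadjusted p the interaction held 6 of the 31 astrocyte genes (19.4%), against 698 of all tested genes (4.18%). DESeq2 had 744 genes there, 6 of them astrocyte genes. Within females the count was 2 of 31, against 366 genes (2.19%; DESeq2 388 genes and 4 of the 31). Within males it was 1 of 31, against 491 genes (2.94%; DESeq2 528 genes and 1 of the 31). The median log2 difference of the 31 genes was 0.07 in females, with 25 genes above 0, and -0.04 in males, with 9 above 0. Without Sample_4671 the median in males was 0.0080, with 15 genes below 0, so the sign in males rests on that mouse. Over all tested genes these medians were 0.0039 and 0.0001. For the interaction, the male minus the female difference, the median was -0.11 with 22 of 31 genes below 0, beside -0.0036 over all genes. Several of these genes co-varied over the same mice, such as Atp1b2 with Slc7a10 (Pearson r 0.784) and Slc6a11 with Sparcl1 (0.778). The counts and signs of the 31 genes are thus not independent of one another.

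The count of 6 moved with single mice. Leaving out each mouse in turn gave 2 to 11 astrocyte genes at unadjusted p for the interaction. It was 2 without Sample_4672, Sample_4677, Sample_4732, Sample_4738 or Sample_4739, and 11 without Sample_4676. The share of all tested genes moved too, from 2.76% without Sample_4672 to 7.88% without Sample_4804, and it was 6.38% without Sample_4676. The count was 3 without Sample_4673, Sample_4753 or Sample_4806 (2.83%, 2.78% and 3.74% of all genes). Within females the count of 2 became 7 without Sample_4676 (3.04% of all genes), 4 without Sample_4804 (7.47% of all genes), 3 without Sample_4671, Sample_4673 or Sample_4806, 1 without Sample_4677 or Sample_4739 and 0 without Sample_4738 or Sample_4753. Within males the count of 1 became 4 without Sample_4671, where 7.7% of all genes passed, and 2 without Sample_4712 (3.03%) or Sample_4731 (4.54%). Without Sample_4804 the comparison within females called 17 genes, none of the 31 among them. Markers of other cells lay on both sides of 0 in the interaction. Below 0 were 8 of 8 oligodendrocyte, 6 of 6 oligodendrocyte precursor, 8 of 8 endothelial, 9 of 10 striatal projection neuron, 7 of 8 cortical excitatory neuron and 6 of 8 microglia markers. Ependyma markers were above 0 in 5 of 6, with a median of 0.34, and choroid plexus markers in 3 of 6. All 6 septum markers were above 0, with a median of 1.30, and their sums ran from 101 to 219 CPM in females and from 104 to 235 in males. The part of these cells in the astrocyte values was not tested.

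Slc15a2, which carries peptides into glia, had the smallest interaction p. Congenic males had 22.4, 27.8, 28.1 and 28.8 CPM and wild-type males 19.1, 20.1, 22.1 and 22.2. These groups do not overlap, but their nearest values are 22.4 and 22.2 CPM. Congenic females had 17.1, 21, 21.2 and 23.8 CPM and wild-type females 18.3, 23.1, 23.9 and 24.7, which overlap. The log2 fold change was 0.36 (SE 0.10) within males, at an unadjusted p of 0.0028 and an edgeR adjusted p of 0.937. The interaction of Slc15a2 was 0.48 (SE 0.15, edgeR adjusted p = 0.967). The gene is named for its small p, and how often such groups lie apart over all genes was not counted. Males also lay apart for Acsbg1, in the other direction, at 160 to 167 CPM in congenic and 170 to 178 in wild-type mice (edgeR adjusted p = 0.937).

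The other 5 genes at unadjusted p for the interaction leaned the opposite way to Slc15a2. Slc6a11, the GABA transporter, had 111, 116, 127 and 138 CPM in congenic females against 92.8, 99.7, 115 and 120 in wild-type females. In males it had 94.1, 98.6, 113 and 126 CPM in congenic against 98.8, 112, 149 and 150 in wild-type mice. Both pairs of groups overlap, and the interaction was -0.45 (SE 0.19, edgeR adjusted p = 0.967). Slc7a10, which carries serine and glycine, had 28.7, 31.4, 31.4 and 31.9 CPM in congenic and 25, 26.6, 28.3 and 30.5 in wild-type females, with an interaction of -0.24 (SE 0.09). The neurotensin receptor gene Ntsr2 had an interaction of -0.19 (SE 0.08), Sparcl1 one of -0.23 (SE 0.10) and Atp1b2 one of -0.22 (SE 0.10), all at an edgeR adjusted p of 0.967.

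**Figure D3:**
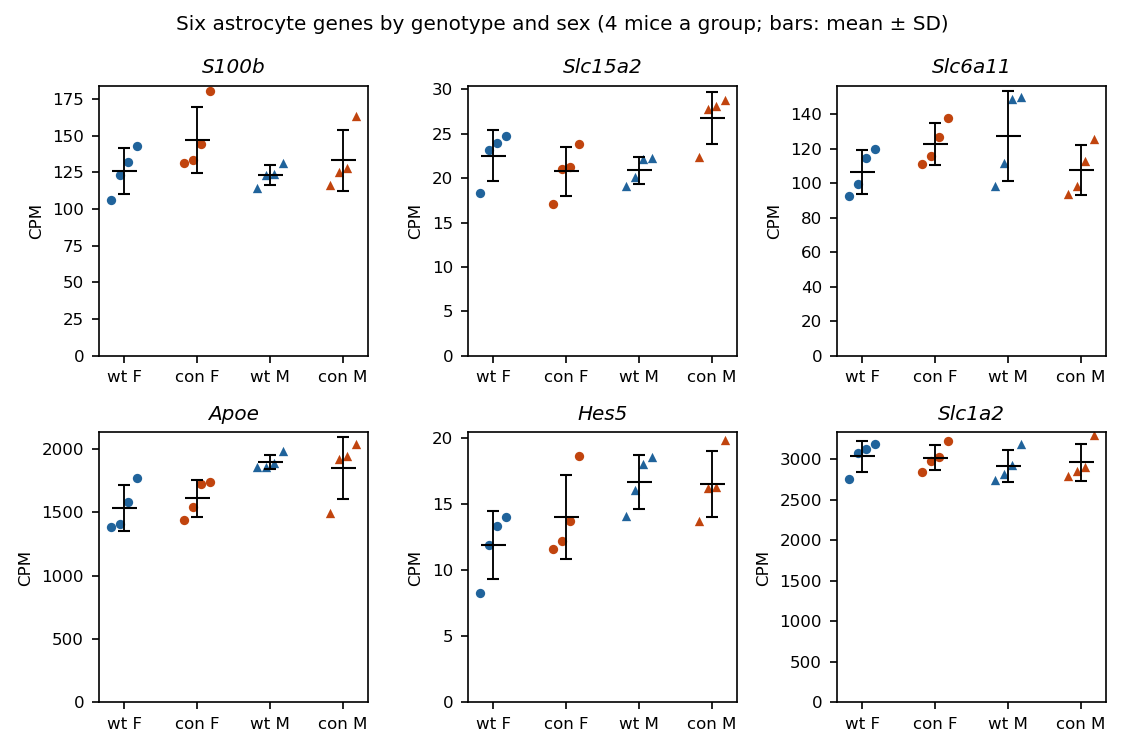
CPM of S100b, Slc15a2, Slc6a11, Apoe, Hes5 and Slc1a2 in each mouse, by genotype and sex (wt, wild-type; con, congenic; F, female; M, male), with bars for the mean and SD of 4 mice. For Slc15a2 the congenic males, at 22.4 to 28.8 CPM, lie above the wild-type males, at 19.1 to 22.2, while Slc1a2 overlaps in all groups.

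Between the sexes no astrocyte gene passed the adjusted threshold, where 23 of 16716 genes (0.138%) did. At unadjusted p the count was 4 of 31 (Apoe, Hes5, Clu and Glul, all with higher means in males), against 2464 of all tested genes (14.7%), so the share of the 31 genes was 12.9% and near that of all genes. Limma-voom called 19 genes, 0 of the 31 among them, and DESeq2 called 259 genes, 1 of them, Apoe, among the 31. Without Sample_4806 edgeR called 15 genes by sex, again 0 of the 31. The males' median log2 difference from females over the 31 genes was 0.04, beside -0.0049 for all tested genes. For comparison, 8 of 8 cortical excitatory neuron markers were below 0 in this contrast, with a median of -0.69. Their part in the astrocyte values was not tested. Mouse numbers followed sex in part, from Sample_4671 to Sample_4734 in males and from Sample_4676 to Sample_4806 in females. Contrasts of the sexes, of genes or of exon bins, thus cannot be told apart in full from the order of the mice.

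Apoe, the lipid carrier, had 1494, 1906 and 2040 CPM (lowest, median, highest) in males and 1383, 1562 and 1772 in females. All males but Sample_4671 lay above every female. The log2 difference, male minus female, was 0.25 (SE 0.07) with an unadjusted p of 0.001 and an edgeR adjusted p of 0.129. It passed with DESeq2 at an adjusted p of 0.019 and in edgeR without Sample_4671, at a log2 difference of 0.30 and an adjusted p of 0.038. Without Sample_4806 it was 0.22 at an edgeR adjusted p of 0.26, and with the cortical marker covariate 0.19 at 0.466.

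Hes5, the Notch target, had 13.7, 16.3 and 19.8 CPM in males and 8.24, 12.8 and 18.6 in females, a log2 difference of 0.37 (SE 0.12, edgeR adjusted p = 0.204). Clu had 715, 810 and 868 CPM against 633, 727 and 850, a log2 difference of 0.14 (SE 0.06, edgeR adjusted p = 0.273). Glul had 1541, 1637 and 1681 CPM against 1370, 1520 and 1641, with 0.09 (SE 0.04, edgeR adjusted p = 0.323). Fgfr3, a growth factor receptor, had 95.4, 100 and 109 CPM against 70.2, 95.7 and 110, with 0.13 (SE 0.07, edgeR adjusted p = 0.417). Gja1 had 161, 201 and 213 CPM against 178, 186 and 195, with 0.08 (SE 0.05, edgeR adjusted p = 0.419). The sexes overlap for each of these genes. Without Sample_4806 the log2 differences of Hes5, Clu, Glul, Fgfr3 and Gja1 were 0.38, 0.12, 0.08, 0.12 and 0.09, at edgeR adjusted p-values from 0.328 to 0.568. The females Sample_4753, Sample_4804 and Sample_4806 were the lowest for Apoe and for Clu, and they have the highest numbers of the 16 mice. Their cortical marker sums were 195, 265 and 232 CPM, against medians of 195 over the 8 females and 140 over the 16 mice. The part of these sums in the Apoe and Clu values was not tested.

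Across the 16 mice the astrocyte genes did not move as one unit. Over the 465 pairs of the 31 genes, Pearson's r of log2 CPM had a median of 0.171 and quartiles of -0.099 and 0.433. Over all 139703970 pairs of tested genes the median was -0.002, with quartiles of -0.240 and 0.238. Positive pairs made up 65.4% of the astrocyte pairs and 49.7% of all pairs, and 5.81% against 1.44% exceeded 0.7. After adjustment over the 465 pairs, 32 positive and 3 negative pairs passed a permutation test at an adjusted p under 0.05. That test was not run on pairs of other genes, so no share over all genes stands beside this count. Each of the 31 genes had at least 687 counts in every mouse, while all tested genes include ones near the filter. The part of the level in this comparison was not tested. The points of every pair share the same 16 libraries and TMM scaling factors, which ran from 0.982 to 1.034. Without TMM, on library size alone, the median r was 0.120.

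One block held Cst3, Cldn10, Ppp1r3c, S100b and Aqp4. Cst3 and Ppp1r3c had the highest r of all pairs, 0.898 (rho 0.909, 16 mice), at a permutation adjusted p of 0.0023 for each. The unadjusted p, 1e-05 for each, is the smallest that 100000 permutations can give. Without the 2 mice farthest from the median of Cst3 the r was 0.902. It was 0.965 in males, 0.903 in females, 0.881 in congenic and 0.912 in wild-type mice. Here and below, the 2 mice were picked on the first-named gene of a pair alone, so mice far out in the second gene could stay in. Cldn10 with Cst3 followed at 0.894 (rho 0.909), with the same permutation p-values, and at 0.831 without 2 mice. Their shared order is visible in single mice. Sample_4673 was the highest for Cst3 (1773 CPM), Ppp1r3c (62.3 CPM) and Cldn10 (32.4 CPM), and Sample_4671 was the lowest for Cst3 (1157 CPM) and Cldn10 (24.1 CPM).

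Clu, Glul and Apoe, and less firmly Fgfr3, formed a further block, and Atp1b2, Acsbg1 and Slc7a10 another, though these were not separate. Acsbg1 had an r of 0.724 with Glul and 0.716 with Clu, above that of Fgfr3 with Clu (0.645) or with Apoe (0.528). Neither of these Fgfr3 pairs passed, at permutation adjusted p-values for r of 0.063 and 0.166. Without the 2 farthest mice their r was 0.229 and 0.123. The r of Apoe with Clu was 0.133 in males and 0.953 in females, with Glul 0.188 and 0.635, and with Fgfr3 -0.208 and 0.574. These values rest on 8 mice of each sex, and the difference between the sexes was not tested. Glul, the glutamine synthetase, and Clu had an r of 0.829 (rho 0.856), with a permutation p of 4e-05 for each, adjusted to 0.0062 for r and 0.0047 for rho, and 0.776 without the 2 farthest mice. Fgfr3 with Glul reached 0.811 (rho 0.682), with permutation p-values of 0.00026 and 0.0045, adjusted to 0.014 and 0.078, but 0.491 without the 2 farthest mice, so the size of this relation rests on those mice. Acsbg1, the acyl-CoA synthetase, and Slc7a10 had 0.804 (rho 0.779), with permutation p-values of 0.0002 and 0.00074, adjusted to 0.014 and 0.034, and 0.635 without the 2 farthest mice.

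The negative pairs set Mfge8 and Sox9 against the first block. S100b with Mfge8 was the lowest at -0.738 (rho -0.762), with permutation p-values of 0.0009 and 0.001, adjusted to 0.021 and 0.041, and -0.571 without the 2 farthest mice. Aqp4 with Sox9 stood at -0.732 (rho -0.700), with permutation p-values of 0.0011 and 0.0034, adjusted to 0.025 and 0.068, and -0.627 without them. Aqp4 with Mfge8 stood at -0.712 (rho -0.674), with permutation p-values of 0.0023 and 0.0054, adjusted to 0.037 and 0.081, and -0.520 without them. By sex, Aqp4 with Mfge8 had -0.303 in males and -0.910 in females, S100b with Mfge8 -0.637 and -0.773, and Aqp4 with Sox9 -0.635 and -0.850. Mfge8 with Ppp1r3c, at -0.678, and Cst3 with Mfge8, at -0.671, did not pass, with permutation p-values for r of 0.004 and 0.0043, both adjusted to 0.052. In these pairs Sample_4739 was the lowest for Mfge8 at 94.0 CPM and the highest for Aqp4 at 119 CPM and S100b at 180 CPM.

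Genes of the same role did not always move together. The 3 junction genes had a median r of 0.557 and the 3 genes of cytoskeleton and calcium binding one of 0.386. The 3 genes of glutamate uptake and glutamine synthesis had a median of -0.297, and the 3 other transporters -0.119. Slc1a2 had the lowest median r with the other genes, at -0.204. It had 12 partners under -0.3, the most of any astrocyte gene, and none over 0.5. Sparcl1 had the highest median r with the other genes at 0.378, followed by Mlc1 at 0.377 and Ndrg2 at 0.345. The values are descriptions over the same 16 mice.

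**Figure D4:**
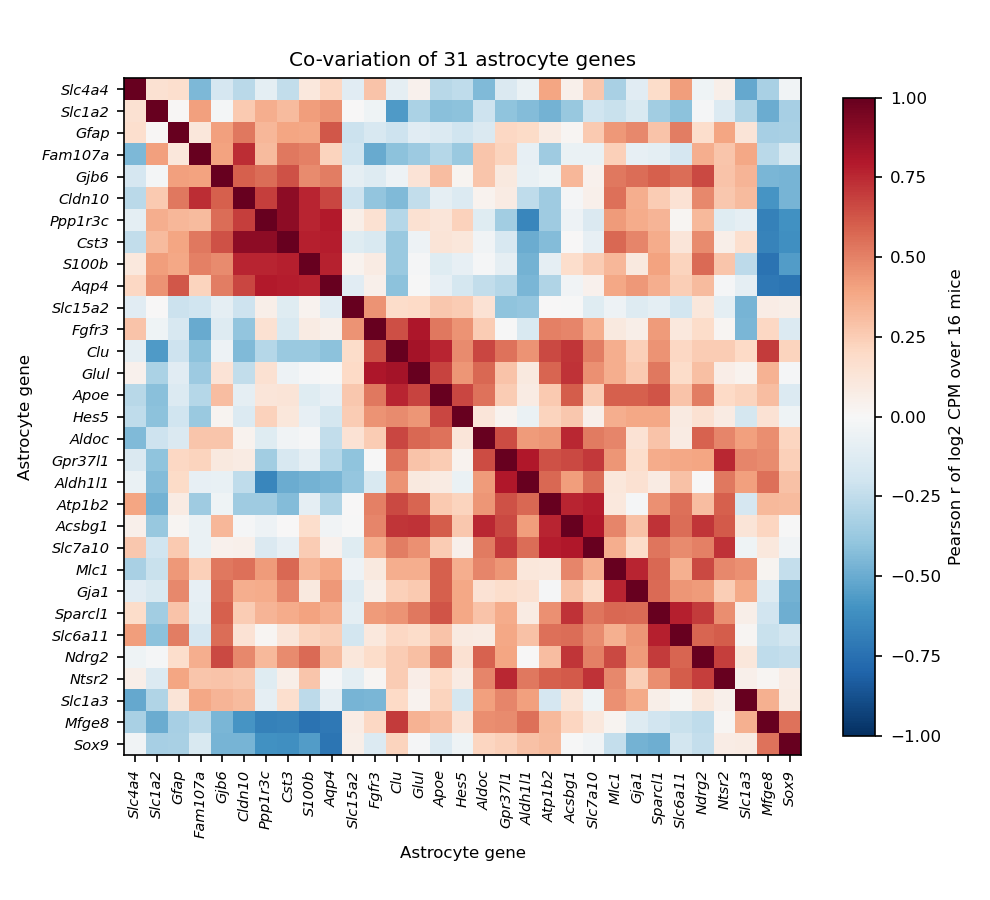
Pearson r of log2 CPM over 16 mice for all pairs of the 31 astrocyte genes, from blue at -1 to red at 1, ordered by average-linkage clustering. The block of Cldn10, Ppp1r3c, Cst3, S100b and Aqp4 (up to 0.898) and the negative values of Mfge8 and Sox9 against it (down to -0.738) stand out.

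The exon table divides each gene into bins, stretches of exon with 1 set of overlapping transcripts, and it allows the isoforms of Gfap, Slc1a2 and Slc1a3 to be read. Gfap, on the minus strand of chromosome 11 (chr11:102748650-102762226 on NCBIM37), has alternative 3′ ends. GFAP alpha, the common form, ends with the coding part of bin 1, and the transcript Gfap-201, which ends like GFAP delta, ends with bin 3 instead. The coding sequences of bins 1 and 3 are shown because they help to tell the isoforms apart. They are given 5′ to 3′ in the direction of transcription, without the stop codon and in lower case throughout.
Gfap bin 1, coding part, chr11:102749994-102750035: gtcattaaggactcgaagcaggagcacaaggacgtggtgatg
Gfap bin 3, coding part, chr11:102752713-102752834: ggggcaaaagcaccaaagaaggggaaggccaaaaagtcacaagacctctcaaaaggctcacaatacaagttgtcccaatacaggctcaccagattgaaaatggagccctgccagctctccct

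Of the counts in bins 1 and 3 of Gfap, most lay in bin 1, the alpha end. Bin 1, which with its untranslated part spans 1386 bp, held 33.2% of the counts of the gene, and bin 3, which spans 1355 bp, held 2.01%. Of the counts in bins 1 and 3, bin 3 took 5.10%, 5.68% and 7.56% (lowest, median, highest) in congenic and 4.44%, 5.45% and 6.61% in wild-type mice. The means were 5.94% ± 0.825 in congenic and 5.47% ± 0.640 in wild-type mice (SD, 8 mice each), and the groups overlap. Against the rest of Gfap, bin 3 had a log2 fold change of 0.05 in edgeR's diffSpliceDGE, at an adjusted p of 1. Of 13 Gfap bins 12 were tested, and their log2 fold changes ran from -0.03 to 0.06.

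Slc1a2, on the plus strand of chromosome 2 (chr2:102498816-102630941), encodes GLT-1, whose carboxy-terminal ends differ between splice forms. GLT-1a ends with bin 34, GLT-1b ends with bin 31, and the transcript Slc1a2-010 carries bin 33, whose coding end is that of GLT-1c. The coding sequences of these ends, again without the stop codon, are the following.
Slc1a2 bin 34, coding part, chr2:102621620-102621688: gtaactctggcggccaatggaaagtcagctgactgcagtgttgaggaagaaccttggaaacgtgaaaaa
Slc1a2 bin 31, coding part, chr2:102617813-102617848: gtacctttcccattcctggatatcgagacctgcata
Slc1a2 bin 33, coding part, chr2:102620874-102620906: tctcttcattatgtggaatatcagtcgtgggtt

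GLT-1a was the main form by counts. Bin 34 held 81886 counts over the 16 mice, bin 31 4451 and bin 33 1683. The 3′-most bin, 9041 bp of untranslated sequence that follows the GLT-1a end, alone held 70.7% of the counts of Slc1a2. Bin 31 took 4.38%, 4.98% and 6.36% (lowest, median, highest) of the counts of bins 31 and 34 in congenic and 4.21%, 5.21% and 5.88% in wild-type mice. The means were 5.25% ± 0.710 and 5.08% ± 0.536 (SD, n = 8 each). By the annotation Slc1a2-010 contains bin 34 as well as bin 33. Counts of bin 34 are thus not of GLT-1a alone, and bin 33 is not an end that excludes bin 34. Bin 33 took 2.08% ± 0.351 of the counts of bins 33 and 34 in congenic and 1.94% ± 0.283 in wild-type mice (SD, 8 mice each). The highest congenic value, 2.84%, was that of Sample_4673. The bins differ in length, 442 bp for bin 31 and 95 bp for bin 34, so these shares order mice and do not give shares of molecules. In edgeR's diffSpliceDGE the log2 fold changes of bins 31, 33 and 34 were 0.03, 0.06 and -0.0095, each at an adjusted p of 1.

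**Figure D5:**
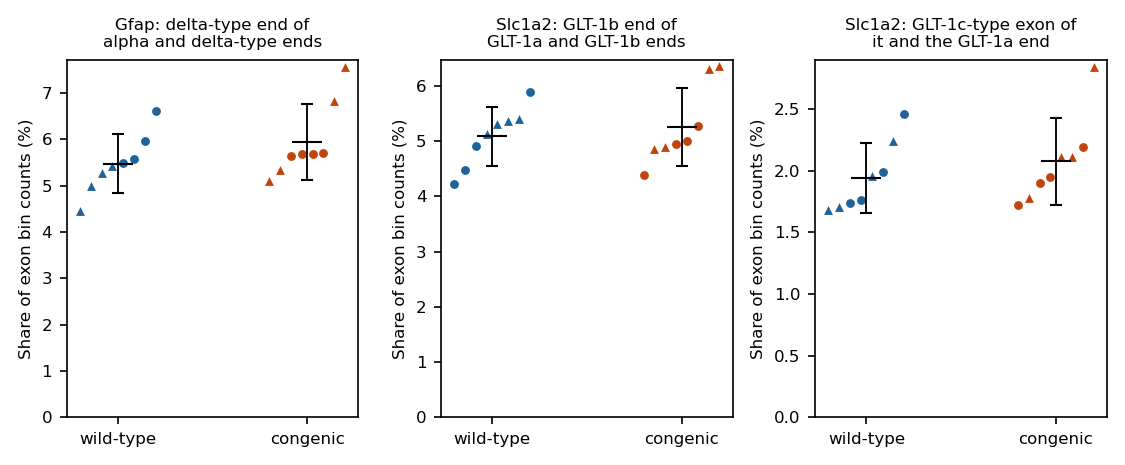
Share of exon bin counts near the 3′ ends of Gfap and Slc1a2 in each mouse, with bars for the mean and SD of 8 mice. Wild-type is in blue and congenic in orange, with females as circles and males as triangles. The panels show Gfap bin 3 of bins 1 and 3, Slc1a2 bin 31 of bins 31 and 34, and Slc1a2 bin 33 of bins 33 and 34, and the genotypes overlap in each. The transcript that carries bin 33 of Slc1a2 also contains bin 34.

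One coding bin of Slc1a2 held no count in any mouse. Bin 23, 166 bp long, belongs to all the annotated full-length transcripts. The bins before and after it had means of 1017 and 3325 counts per mouse. Its sequence is shown because its emptiness sets it apart from the rest of the coding region.
Slc1a2 bin 23, chr2:102583965-102584130: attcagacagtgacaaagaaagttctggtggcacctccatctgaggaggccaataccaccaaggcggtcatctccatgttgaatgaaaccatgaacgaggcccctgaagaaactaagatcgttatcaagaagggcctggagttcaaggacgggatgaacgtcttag
Windows of 50 bp from this bin occurred at a single site of the genome, 5 of 5, as did those of bins 21 and 24. The annotated gene Gm13872 lies on the opposite strand, and an exon of it (chr2:102583808-102585079) covers all 166 bp. The 7 bins of Gm13872 held 67 counts over the 16 mice. A sum of 0 allows up to 3 counts over the 16 mice, for counting error only. The labels do not say how bins that overlap on opposite strands were counted, and the part of this overlap in the empty bin was not tested.

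Exon use by genotype differed in 1 of 235478 tested bins (0.000425%), which lies in none of the 3 genes, and 2461 bins had an unadjusted p under 0.05 (1.05%). Of 27 tested bins of Slc1a2, 20 of Slc1a3 and 12 of Gfap, 0 had an unadjusted p under 0.05. With limma's diffSplice 0 bins passed the adjusted threshold, 4016 had an unadjusted p under 0.05 and 0 of these were in the 3 genes. The Slc1a3 bins with the smallest p were the noncoding bins 10, 12 and 13, with log2 fold changes of 0.12, -0.18 and 0.22. For Slc1a2 they were bins 6, 2 and 33 (-0.07, -0.04 and 0.06) and for Gfap bins 10, 9 and 8 (0.06, 0.06 and 0.05), all at an adjusted p of 1.

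By sex 37 bins passed (0.0157%), 7695 had an unadjusted p under 0.05 (3.27%), and 1 bin of the 3 genes passed. It is bin 12 of Slc1a3, on the minus strand (chr15:8601054-8601506), 453 bp of noncoding sequence in Slc1a3-006, a transcript annotated as a retained intron. Females had 45 to 83 counts in it and males 18 to 54. Its share of the Slc1a3 counts was 0.103% ± 0.0221 in females and 0.0628% ± 0.0189 in males (SD, n = 8 each). The groups overlap, since the male Sample_4731, at 0.0933%, exceeded the females Sample_4676, Sample_4737 and Sample_4739, and the male Sample_4712, at 0.0782%, exceeded Sample_4737. The log2 difference, male minus female, was -0.50 at an adjusted p of 0.025. It missed the threshold without Sample_4806 (-0.51, adjusted p = 0.055) and without Sample_4673 (-0.44, adjusted p = 0.14). Bin 10, of the same transcript, had a log2 difference of -0.23 at an adjusted p of 0.662, and bin 13 one of -0.26 at an adjusted p of 1. For Slc1a2 the bins of smallest p by sex were bins 18, 6 and 16 (0.08, -0.12 and 0.07) and for Gfap bins 6, 8 and 11, between -0.07 and 0.05, all at an adjusted p of 1.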

How the data were processed

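The authors deposited whole-number counts per gene and per exon bin, not normalized. Tools listed in the submitters' processing notes are HTSeq 0.6.1p1, FastQC 0.10.1, limma 3.22.7 and edgeR 3.8.6. The aligner and strand setting are, in the sources used here, not given. Labels differ on the reads (single-end or stranded paired-end) and list mm9 and mm10. Exon bins built anew on NCBIM37 (mm9, GENCODE vM1) matched the deposited number in 97.6% of 17389 genes with at least 5 bins, so that build is used for coordinates, exon lengths and sequence.

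Runs of a mouse on 3 lanes were summed, giving 73.1 to 82.0 M gene counts and 118.5 to 133.2 M exon counts per mouse. Deep counts leave the spread between mice as the main error. Genes were filtered with edgeR's filterByExpr (minimum count 10, minimum total 15), scaled by TMM and tested with the edgeR 4.0.16 quasi-likelihood test, with sex or genotype as the other term. P-values were Benjamini-Hochberg adjusted over all tested genes or bins, with calls under 0.05. Exon bins were tested with diffSpliceDGE. Levels are CPM on TMM-scaled library sizes, and r was taken on log2 CPM with a prior count of 2. DESeq2 1.42.0, limma 3.58.1 (R 4.3.3), other scalings and filters, single lanes, a cortical marker covariate and leaving out each mouse were alternatives. Tests were two-sided and were tried on simulated data. The astrocyte genes and the other lists were chosen with earlier results of these data known. All 31 genes could be named. Full statistics went to the 6 of smallest p for genotype and for sex and to Slc1a2, Slc1a3, Gfap, Aqp4, Gja1 and Aldh1l1. Pairs named were the 5 highest and 5 lowest in r, with a few further pairs of Apoe, Acsbg1 and Fgfr3 to describe the blocks. Bins named were the 3 of smallest p per gene and the isoform ends. One sequence is not reported here.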

Additional observations from a re-analysis of the deposited data

Results flagged for a closer look

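One value stood far from the others of its genotype. Fgfr3, a fibroblast growth factor receptor of astrocytes, had 70.2 CPM in the congenic female Sample_4804, while the next lowest congenic mouse had 95.4 CPM and the highest 110 CPM. The gap was 0.63 of the range of the 8 congenic mice, past the 95% critical value of Dixon's test for 8 values. Among 62 groups tested, 31 genes in 2 genotypes, this was the single one past the limit, and chance alone flags about 1 in 20. The same mouse had the highest cortical excitatory marker sum, 265 CPM, and the lowest Glul, 1370 CPM. Their part in the Fgfr3 value was not tested.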

How the results depend on the processing

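Of 982 values under alternatives, 936 counted as unchanged. For tests of single genes this meant the same direction and the same side of the threshold. For counts of calls it meant an equal or similar count. For the astrocyte median log2 fold change it meant a shift under 0.0584, a spread between mice, so a median near 0 could change sign. For genotype, 0 genes and 0 astrocyte genes passed under any of the 25 alternatives, with the astrocyte median log2 fold change between -0.0071 and 0.034. Small genotype values changed sign: with the cortical covariate Slc1a2 was -0.0164, Aqp4 -0.0311 and Aldh1l1 0.007. Leaving out 1 mouse, Slc1a2 ran from -0.0206 to 0.0257, Aqp4 from -0.0008 to 0.0614 and Gja1 from -0.0428 to 0.0161. Their adjusted p stayed at 0.977 or above. For sex, the genes called were 259 with DESeq2, 13 with the cortical covariate, 13 in lane 4 alone and 12 (without Sample_4672 or Sample_4731) to 76 (without Sample_4712) leaving out 1 mouse. Astrocyte genes called for sex were 1 with DESeq2 and 0 to 1 leaving out 1 mouse, in each case Apoe. Leaving out each mouse within sexes was added after seeing the data, as was the exon test by sex without Sample_4673. There the genes called within females ran from 0 to 17 and the astrocyte median of the interaction from -0.1053 to -0.0402. Bins called by genotype were 0 at a minimum count of 50, 0 with limma, and 0 to 1 leaving out Sample_4673 or Sample_4806. Bins called by sex were 11 to 39 leaving out either mouse, and of the 3 genes 0. The median r was 0.120 on library size alone and 0.117 to 0.189 leaving out 1 mouse, lowest without Sample_4738. The causes were not tested. No paired analysis was possible because the groups share no replicate number.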
